A study of Mus musculus with 12 samples.

Results

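Of the 1108 genes in the deposited list of m6A peaks that differ between β-Mettl3-KO and Mettl3 flox/flox islets, 107 carried 2 or more listed peaks. They were found by counting how often each Ensembl gene identifier occurs in the list, and they hold 232 of its 1233 peaks. The other 1001 genes have 1 listed peak each. Of the 107 genes, 95 had 2 peaks, 8 had 3, 2 had 4 (Prlr and Zfp292) and 2 had 5 (Arhgap5 and Malat1). Peaks are numbered from the 5′ end of the gene.

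N6-methyladenosine (m6A) is written on nascent RNA by a complex whose catalytic subunit is METTL3. The complex acts within a short consensus called DRACH, and methylated sites gather in long internal exons, around stop codons and in 3′ untranslated regions (UTRs), so a single transcript often carries several sites. YTH-domain proteins read the mark, and cytoplasmic readers of that family are known to speed the decay of marked mRNAs. Antibody capture of fragments (MeRIP) places a methylated stretch but not the single base.

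Knockout mice (β-Mettl3-KO) carried Mettl3 flox/flox and RIP-Cre, in which the rat insulin promoter drives Cre, so islet cells that make no insulin keep the allele. Control mice carried Mettl3 flox/flox, with no Cre in their labels, so an effect of Cre itself and of the loss of Mettl3 cannot be told apart. All mice were C57BL/6, 8 weeks old and on normal chow. RNA of 12 knockout and 9 control mice was pooled, with 3 biological replicates per genotype, called pools here, and how the mice were divided among them is not stated in the labels. The RNA was fragmented to about 100 nt, and each pool gave an antibody-captured library (IP) and an uncaptured one (input), read as pairs of 150 bp. The 12 libraries held 16832779 to 22257803 reads. Levels are given as RPM, the read count of a peak scaled by the total reads of its library, and enrichment is the ratio of IP RPM to input RPM of the same pool. Peaks of Mettl3 and of the islet hormone genes were not analysed here, so the targeted gene could not serve to check the labels. Genes that mark β-cells are in the list, Mafa, Nkx6-1, Pcsk1 and Slc30a8 among them.

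Peak sequences below are 25-base windows at the DRACH nearest the middle of each peak, for the genes whose peaks changed unequally and, last, for Prlr, whose 4 peaks moved alike. They are written 5′ to 3′ on the transcript strand from GENCODE M21 transcripts (GRCm38), and capitals mark DRACH, where D is A, G or T, R is A or G, and H is A, C or T. Sfmbt1 peak 1 could not be placed on a transcript and Malat1 peak 4 held no match. A match is a description of the letters and not a measured methylation site.
Pikfyve peak 1: cttgacatttAAACAggagttaaaa
Pikfyve peak 2: ccagaccactGGACAgggttggatc
Sfmbt1 peak 2: gagaaagcaaAAACAgcacaaaaat
Malat1 peak 1: gtgaggcaggAGACTcagcccgagg
Malat1 peak 2: tgtcttgaaaAAACAaaaaggttag
Malat1 peak 3: aaagctactaGGACTgaagtaaaaa
Camk2n1 peak 1: tgacagttacTGACAaaaagcacga
Camk2n1 peak 2: ctcggaactgGAACTtctgtaaaca
Slc8a1 peak 1: gttgacttcaGGACAgaagacggca
Slc8a1 peak 2: ggccaacgggGAACAgttcaaagtg
Chic1 peak 1: gatatgccccAGACCctgtgttggt
Chic1 peak 2: ttgaaaaatgAAACAacttctccat
Slc22a23 peak 1: tgtgttgggaAAACAgcctccagat
Slc22a23 peak 2: ttcctagagaGGACAaggaatgact
Prlr peak 1: tcaccttataAAACTggcaggctct
Prlr peak 2: gggtcacggaTAACAacatcctggt
Prlr peak 3: aatgtctgagAAACAactgcatctt
Prlr peak 4: aatggagagaTGACCaaaaaaagga

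DRACH was searched on the transcript strand in the central 100 bases of each placed peak. It was present in 93.3% of 223 member windows and in 93.3% of all 1190 listed windows. A member window held 2.60 matches on average and any listed window 2.49. The letters GGAC, a strong form of the consensus, were in 42.2% of member windows and in 42.7% of all. The shares in member windows and in all listed windows were thus nearly the same.

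Several listed peaks of these genes are not separate measurements. Pairs of peaks with the same 12 counts occurred in Malat1 (chr19:5802552-5802671 and the same start with an end 1 base later) and in Neat1 (chr19:5843050-5845476 and an end 2 bases later). Counting each such pair once leaves 230 distinct peaks and 106 genes with 2 or more. In all, 24 peaks of 11 genes overlapped another listed peak of their own gene. Among the shared stretches were 1210 bases in Chrm3 (peaks 1 and 2), 1013 in 3222401L13Rik, 920 in 4632427E13Rik, 781 in Rbm4b and 446 in Mettl9. Others were 369 bases in Tbc1d8, 236 in Rnf4 and 219 in Gm26917, of which 67 lie within the aligned blocks of both Gm26917 peaks. In Malat1, peaks 2 and 3 shared 158 bases beside the 120 of the duplicated peak, and the Neat1 pair shared 2427. A further 3 peaks overlapped a listed peak of another gene, namely Ap1g1 peak 2 with Gm17344 (808 bases), Pstk peak 2 with Ikzf5 (899) and Rnf146 peak 1 with Echdc1 (778). Merging overlapping intervals within a gene left 99 genes with 2 or more peaks.

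Most peaks of these genes lost enrichment in knockout islets. The authors' deposited table lists 218 of the 232 peaks as lower and 14 as higher in knockout islets, 94.0% lower against 92.9% over the whole list. In 99 genes every peak is listed lower, in Mafa, Podxl, Gm26917 and Castor2 every peak is listed higher, and in Sfmbt1, Chic1, Camk2n1 and Malat1 the peaks are listed in both directions. A change was called here where edgeR's quasi-likelihood test gave a Benjamini-Hochberg adjusted p under 0.05 over all 1233 listed peaks. Enrichment fell at 137 of the 232 peaks and rose at 4, where 55.6% of all listed peaks fell and 2.27% rose. The 4 that rose were Castor2 peak 2, Gm26917 peak 2, Podxl peak 2 and Sfmbt1 peak 1. The median log2 change in enrichment was −1.0 over these peaks and −1.02 over all listed peaks. The shares are near those of the whole list, which the authors selected on these same libraries, so the counts describe the list and are no independent evidence.

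IP moved the same way at most of these peaks. IP RPM fell at 160 of the 232 peaks and rose at 3, against 64.8% and 2.92% of all listed peaks, with a median log2 change of −0.80 (−0.76 over all). The 3 rises were the duplicated Malat1 peak 1 and Malat1 peak 2. Of the 137 peaks whose enrichment fell, 111 also fell in IP (81.0%) and 26 did not. Input reads fell at 5 peaks and rose at 11, against 0.649% and 6% of all listed peaks, with a median log2 change of 0.23 (0.22 over all). The falls were at both Mafa peaks, Camk2n1 peak 1, Sfmbt1 peak 1 and Mreg peak 1. Among the rises were Malat1 peaks 3 and 4, Pikfyve peak 2, Slc22a23 peak 2, Zfp292 peak 4, Pcdhgb1 peak 2 and the overlapping pairs of Mettl9 and 3222401L13Rik. In bulk islet RNA, fewer cells of a type and less RNA per cell cannot be told apart.

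These calls rest on few pools and on the scaling by total reads. Median enrichment over the 230 distinct peaks was 4.47, 3.36 and 3.11 in knockout pools 1, 2 and 3, against 5.13, 7.52 and 9.24 in control pools 1, 2 and 3. Control pool 1 was the lowest control at 166 peaks and lay below knockout pool 1 at 87. All knockout pools lay below all control pools at 119 of 230 peaks (51.7%, against 53.6% of all listed peaks) and above them at 5. Without control pool 1 enrichment fell at 192 peaks, without control pool 2 at 29 and without control pool 3 at 25. Without knockout pool 1 it fell at 132, without knockout pool 2 at 16 and without knockout pool 3 at 18. The fall was called with each pool left out in turn at 8 peaks, among them Pikfyve peak 2, Frzb peak 2, Zfp292 peak 4, Arhgap5 peak 2, Kpna1 peak 2 and both 3222401L13Rik peaks. With scaling factors computed on the listed peaks themselves (TMM), which moved the median change over all listed peaks to −0.07, Pikfyve peak 2 alone of the 137 still fell, and 117 of the 137 kept a negative sign. DESeq2, used below, also took its scaling factors from the listed peaks, and its median enrichment change over all of them was −0.042. Most listed peaks are lower, so such scaling sets the middle of the list near no change. Lost falls and changed signs under TMM or DESeq2 are therefore not separate evidence on the fall.

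Distances between peaks of the same gene are given as a description, since the list was chosen on these libraries and most of it is lower in knockout islets. The distance between the most and the least changed distinct peak of a gene had a median of 0.33 on the log2 scale for enrichment, 0.21 for IP and 0.27 for input. It was under 0.5 in 73 of 106 genes for enrichment, in 90 for IP and in 76 for input, and over 1 in 16, 5 and 9 genes. These medians and counts, and the gene counts that follow, include genes with overlapping peaks. Such peaks share reads, so a small distance was built in there. For IP it was 1.34e-06 in 3222401L13Rik and 0.0074 in 4632427E13Rik. Enrichment fell at every distinct peak of 40 genes and at some peaks of 45, no peak was called in 17, and 4 genes held a rise. IP fell at every peak of 58 genes and at some of 30. Every log2 change in enrichment was negative in 99 genes and positive in 4, and 3 genes held both signs. No input change was called in 94 genes.

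**Figure D1:**
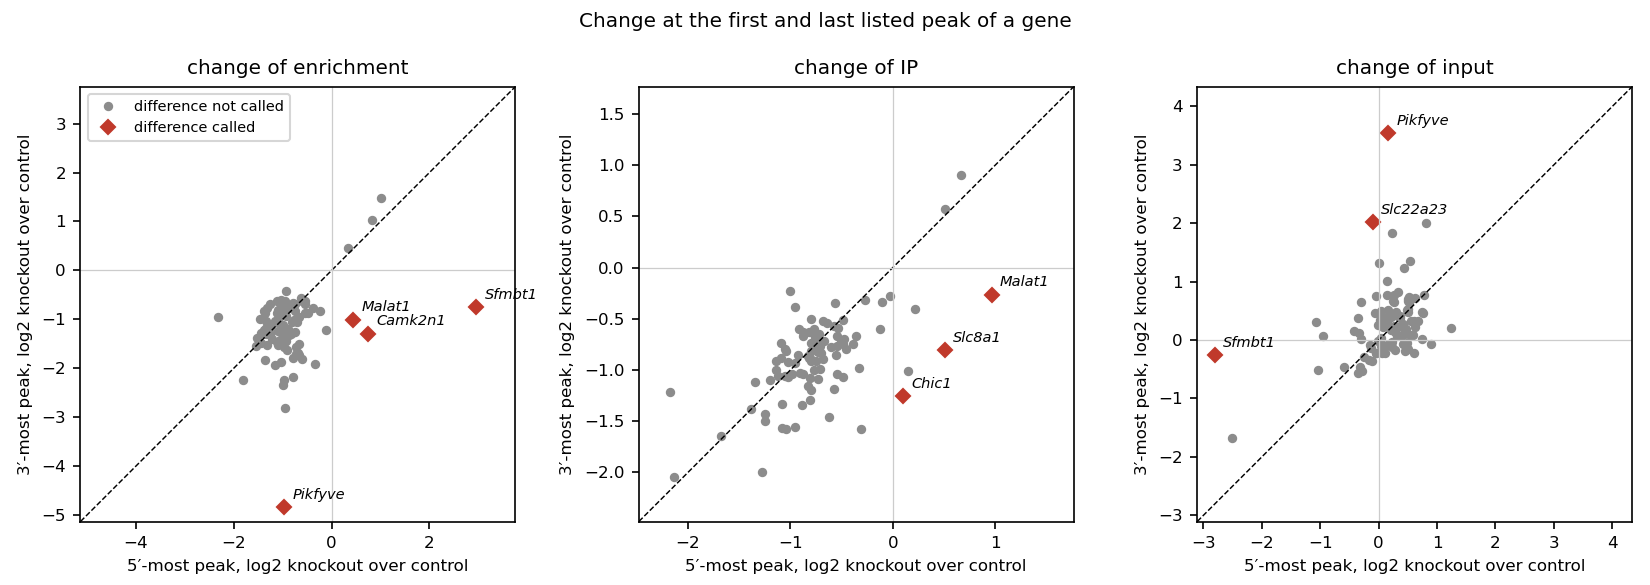
Log2 change (knockout minus control) at the 5′-most peak (x axis) against the 3′-most peak (y axis) of each gene, for enrichment, IP and input, in 97 genes; the dashed line marks equal change and red diamonds mark genes whose peaks differed by the within-gene test. Most genes lie in the lower left for enrichment and IP, and the called genes lie away from the line.

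Across the 97 genes whose 5′-most and 3′-most peaks do not overlap, the changes at both ends had a Pearson correlation of 0.34 and a Spearman correlation of 0.21 for enrichment, 0.62 and 0.52 for IP, and 0.36 and 0.36 for input. The points share the same 12 libraries, their scaling and the selection of the list. Of the 70 member input counts of 30 or less, 59 were odd (84.3%), and how reads or pairs were counted is not stated, so the low counts printed here may not be single independent reads. Input counts at the lowest peaks are small, with 1 as the lowest, which adds counting error to enrichment that IP alone does not carry.

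Whether the peaks of a gene differed from each other was tested with edgeR's test of differential usage among the distinct peaks of 106 genes. It called 4 genes for enrichment (3.77%), Pikfyve, Sfmbt1, Malat1 and Camk2n1, with 6 at an unadjusted p under 0.05. For IP it called 3 (2.83%), Malat1, Slc8a1 and Chic1, with 6 at an unadjusted p under 0.05. For input it called 3 (2.83%), Pikfyve, Slc22a23 and Sfmbt1, with 9 at an unadjusted p under 0.05. In Pikfyve, Sfmbt1, Camk2n1, Slc8a1 and Chic1, peak 1 spans over 3 times the length of its aligned blocks and peak 2 does not, and the part of this in the differences was not tested. Because the peaks of a gene share each library, the scaling of whole libraries cancels in this contrast, whereas the estimated spread does not.

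**Figure D2:**
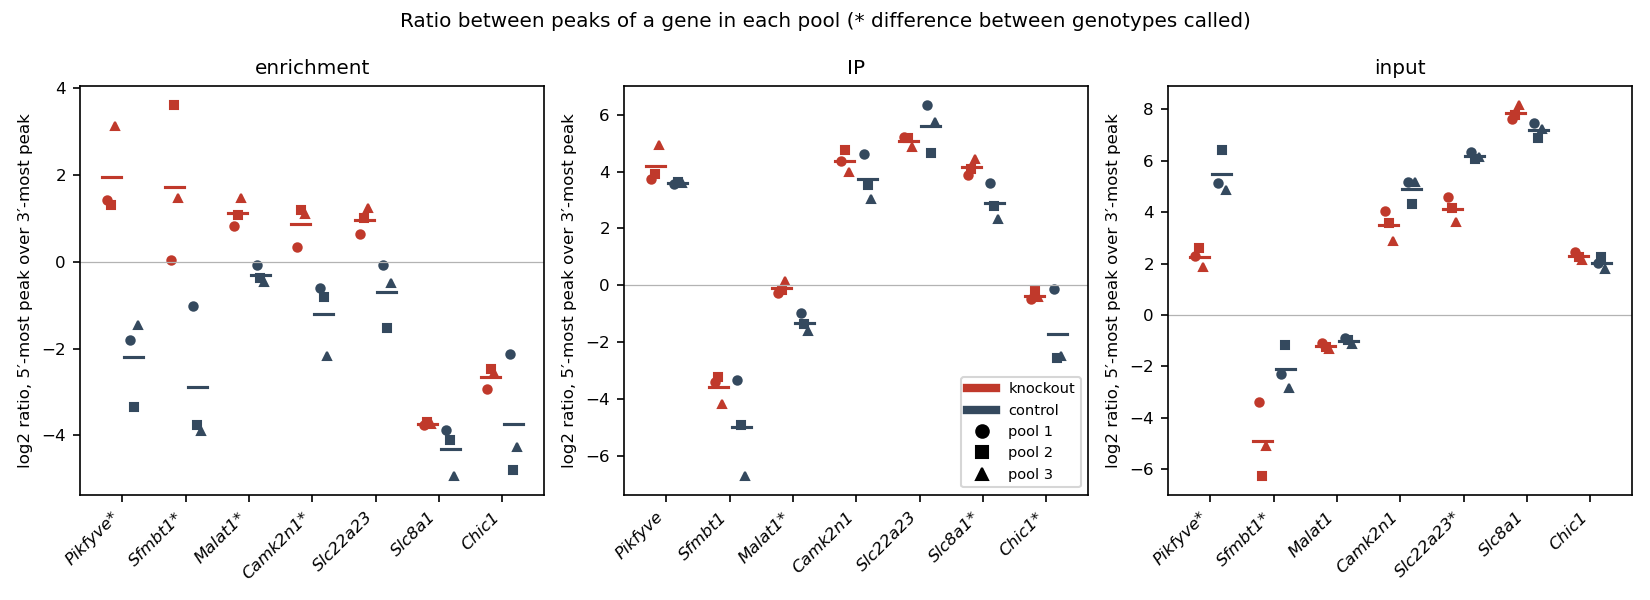
Log2 ratio of the 5′-most over the 3′-most peak in each pool, for enrichment, IP and input of the 7 genes called in the within-gene test, knockout pools left of control pools; an asterisk marks the called quantity. For Pikfyve enrichment the knockout pools lie at 1.43, 1.31 and 3.14 and the control pools at −1.80, −3.35 and −1.46.

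Pikfyve encodes a phosphoinositide kinase that acts on endosomes and lysosomes. Its peak 1 (chr1:65246263-65250189, + strand, coding sequence) and peak 2 (chr1:65273660-65273840, across the stop codon) are listed as lower. Enrichment at peak 2 was 2.33, 1.49 and 0.401 in knockout pools, against 18.1, 104 and 28.9 in control pools. Peak 1 had 6.28, 3.71 and 3.53 in knockout pools, against 5.20, 10.2 and 10.5 in control pools. The groups stood apart at peak 2 and overlapped at peak 1. Input held 23, 23 and 43 reads at peak 2 in knockout pools, against 3, 1 and 3 in control pools, while peak 1 had 115, 141 and 156 reads in knockout pools, against 123, 127 and 101 in control pools. IP reads at peak 2 were 52, 28 and 17 in knockout pools, against 53, 119 and 105 in control pools. Enrichment fell by 4.83 log2 units at peak 2 (edgeR adjusted p = 0.000112) and by 0.97 at peak 1 (edgeR adjusted p = 0.0415). Input rose by 3.54 at peak 2 (edgeR adjusted p = 0.000346) and had a log2 change of 0.16 at peak 1 (edgeR adjusted p = 0.84). The peaks differed by 3.87 in their log2 enrichment change (edgeR adjusted p = 0.0012) and by −3.37 in input (edgeR adjusted p = 0.00032), calls that held with each pool left out in turn. The IP difference was 0.49 and was not called. A control value at peak 2 rests on at most 3 input reads, so its size is poorly known. The fall at peak 1 lost its call without control pool 2, control pool 3, knockout pool 2 or knockout pool 3 (edgeR adjusted p up to 0.163) and had log2 changes of 0.0025 under TMM and 0.024 under DESeq2.

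Sfmbt1, a Polycomb-associated repressor with MBT repeats that bind methylated histones, was listed in both directions. At peak 1 (chr14:30715632-30716547, + strand) enrichment was 5.34, 45.4 and 21.3 in knockout pools, against 3.44, 0.606 and 0.698 in control pools. Peak 2 (chr14:30816852-30818373, 3′ UTR) had 5.15, 3.69 and 7.73 in knockout pools, against 6.99, 8.18 and 10.5 in control pools. Every knockout pool lay above every control pool at peak 1, whereas the groups overlapped at peak 2. Input reads at peak 1 numbered 11, 1 and 1 in knockout pools, against 19, 59 and 13 in control pools, and IP reads 57, 37 and 21 in knockout pools, against 64, 41 and 11 in control pools. Enrichment rose at peak 1 by 2.95 in log2 units (edgeR adjusted p = 0.0105) and had a log2 change of −0.75 at peak 2 (edgeR adjusted p = 0.10). Input fell at peak 1 by 2.81 (edgeR adjusted p = 0.00485), while IP fell at peak 2 by 1.01 (edgeR adjusted p = 0.0035) and changed by 0.15 at peak 1 (edgeR adjusted p = 0.80). The peaks differed by 3.71 in enrichment change (edgeR adjusted p = 0.012) and by −2.55 in input change (edgeR adjusted p = 0.039). The enrichment difference lost its call without control pool 2 (edgeR adjusted p = 0.145), control pool 3 (0.0616) or knockout pool 2 (0.246). The input difference lost it without control pool 1 (edgeR adjusted p = 0.0716), control pool 2 (0.491), knockout pool 2 (0.379) or knockout pool 3 (0.0517). The rise at peak 1 lost its call without control pool 2, knockout pool 2 or knockout pool 3 (edgeR adjusted p up to 0.104). Its input fall lost the call without the same pools (edgeR adjusted p up to 0.187), and the IP fall at peak 2 without knockout pool 2 (edgeR adjusted p = 0.0619).

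Camk2n1, an inhibitor of the calcium/calmodulin-dependent kinase CaMKII, carried both of its peaks in the 3′ UTR. At peak 1 (chr4:138455268-138457171, + strand) enrichment was 6.71, 8.14 and 6.37 in knockout pools, against 5.45, 3.26 and 3.95 in control pools. Peak 2 (chr4:138458244-138458662) had 5.34, 3.54 and 2.98 in knockout pools, against 8.23, 5.70 and 17.9 in control pools. The order of the genotypes was opposite at the 2 peaks, without overlap at either. Input at peak 1 was 19.6, 15.5 and 18.3 RPM in knockout pools, against 37.6, 41.0 and 33.2 in control pools, a log2 fall of 1.07 (edgeR adjusted p = 0.0039). Peak 2 had 22, 27 and 45 input reads in knockout pools and 19, 39 and 15 in control pools (log2 change 0.32, edgeR adjusted p = 0.77). Enrichment changed by 0.74 at peak 1 (edgeR adjusted p = 0.071) and by −1.29 at peak 2 (edgeR adjusted p = 0.055), neither of them called, and the difference of 2.03 between them was called (edgeR adjusted p = 0.023). IP fell at peak 2 by 0.98 (edgeR adjusted p = 0.0289) and changed by −0.33 at peak 1 (edgeR adjusted p = 0.23). The difference lost its call without control pool 3 (edgeR adjusted p = 0.358), knockout pool 2 (0.262) or knockout pool 3 (0.226). The input fall at peak 1 lost it without knockout pool 2 (edgeR adjusted p = 0.103), and the IP fall at peak 2 was kept only without control pool 1 (edgeR adjusted p up to 0.186).

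Malat1, an abundant nuclear long noncoding RNA, had 4 distinct peaks, with IP higher in knockout islets at the 2 nearest its 5′ end and enrichment lower at the 1 nearest its 3′ end. Its peaks lie at chr19:5802552-5802671, 5801916-5802077, 5800994-5802073 and 5799076-5799226 on the − strand. IP at peak 1 was 371, 354 and 421 RPM in knockout pools, against 181, 265 and 141 in control pools. Peak 2 had 615, 925 and 591 in knockout pools, against 442, 293 and 191 in control pools. All knockout pools exceeded all control pools at both, and IP rose by 0.96 (edgeR adjusted p = 0.00154) and 1.20 (edgeR adjusted p = 0.0001). IP at peak 3 changed by 0.24 (edgeR adjusted p = 0.27) and at peak 4 by −0.26 (edgeR adjusted p = 0.31). Enrichment at peak 4 was 1.72, 1.81 and 1.01 in knockout pools, against 1.99, 4.24 and 2.53 in control pools, a fall of 1.01 (edgeR adjusted p = 0.0172). At peaks 1, 2 and 3 it changed by 0.44, 0.69 and −0.56, none of them called. Input rose at peak 3, with 40520, 42312 and 51695 reads in knockout pools against 27825, 24720 and 21136 in control pools (log2 change 0.80, edgeR adjusted p = 0.0055), and at peak 4 by 0.74 (edgeR adjusted p = 0.0497). The peaks differed in enrichment change (edgeR adjusted p = 0.023) and in IP change (edgeR adjusted p = 0.011). With overlapping peaks left out, which drops peaks 2 and 3, the enrichment difference lost its call (edgeR adjusted p = 0.142) and the IP difference kept it (0.0399), and with wide peaks left out across the genes the enrichment difference lost it too (0.051). The enrichment difference also lost its call without control pool 2 (edgeR adjusted p = 0.128), control pool 3 (0.355), knockout pool 2 (0.468) or knockout pool 3 (0.377). The IP difference lost it without the same pools (edgeR adjusted p = 0.0677, 0.616, 0.19 and 0.0662 in that order). The IP rises at peaks 1 and 2 held with each pool left out in turn, whereas the enrichment fall at peak 4 did not hold without control pool 2, control pool 3, knockout pool 2 or knockout pool 3 (edgeR adjusted p up to 0.166). The input rise at peak 3 lost its call without control pool 3 (edgeR adjusted p = 0.0548), and that at peak 4 was kept only without control pool 1 (edgeR adjusted p up to 0.496).

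Slc8a1, the sodium/calcium exchanger NCX1, combined a very wide peak with a compact one. Peak 1 spans 203204 bases of the gene (chr17:81445566-81648769, − strand) but its aligned blocks cover 989, and peak 2 lies at chr17:81388691-81389020 in the coding sequence. IP at peak 1 was 189, 226 and 207 RPM in knockout pools, against 153, 148 and 137 in control pools. IP at peak 2 was 12.8, 13.1 and 9.39 in knockout pools, against 12.5, 21.5 and 27.5 in control pools. IP fell by 0.80 at peak 2 (edgeR adjusted p = 0.031) and changed by 0.51 at peak 1 (edgeR adjusted p = 0.062), a difference of 1.31 (edgeR adjusted p = 0.014). Enrichment at peak 1 was 0.359, 0.326 and 0.253 in knockout pools, against 0.355, 0.352 and 0.368 in control pools, so IP RPM lay below input RPM there. Input at peak 1 was 526, 692 and 821 RPM in knockout pools, against 430, 419 and 373 in control pools (log2 change 0.74, edgeR adjusted p = 0.051). The difference lost its call without control pool 2 (edgeR adjusted p = 0.0677), control pool 3 (0.616), knockout pool 2 (0.19) or knockout pool 3 (0.138), and the IP fall at peak 2 lost it without the same pools (edgeR adjusted p up to 0.226).

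Chic1, which encodes a cysteine-rich membrane-associated protein, also paired a wide peak with a compact one. Peak 1 (chrX:103356566-103373610, + strand, coding sequence) had enrichment of 1.04, 0.973 and 0.606 in knockout pools, against 1.45, 0.597 and 0.756 in control pools. Peak 2 (chrX:103395463-103396092, 3′ UTR) had 7.98, 5.36 and 3.58 in knockout pools, against 6.35, 16.7 and 14.7 in control pools. IP at peak 2 was 199, 168 and 134 RPM in knockout pools, against 205, 494 and 500 in control pools, and knockout pools lay lowest. IP fell by 1.26 at peak 2 (edgeR adjusted p = 7.57e-05), a call that held with each pool left out in turn, and changed by 0.10 at peak 1 (edgeR adjusted p = 0.70). Enrichment fell at peak 2 by 1.23 (edgeR adjusted p = 0.0076) and changed by −0.12 at peak 1 (edgeR adjusted p = 0.75). The peaks differed by 1.36 in IP change (edgeR adjusted p = 0.026). That call was lost without control pool 2 (edgeR adjusted p = 0.643), control pool 3 (0.999), knockout pool 1 (0.0515), knockout pool 2 (0.222) or knockout pool 3 (0.0662). The enrichment fall at peak 2 was lost without control pool 2, control pool 3, knockout pool 2 or knockout pool 3 (edgeR adjusted p up to 0.0909).

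Slc22a23, an orphan member of the organic ion transporter family, lost enrichment at both of its 3′ UTR peaks. Peak 1 (chr13:34181286-34183265, − strand) had 4.51, 4.15 and 4.51 in knockout pools, against 5.63, 8.77 and 11.2 in control pools, a fall of 0.95 (edgeR adjusted p = 0.0272) that had a log2 change of 0.022 under DESeq2. Peak 2 (chr13:34179158-34179428) had 2.89, 2.06 and 1.93 in knockout pools, against 5.96, 25.3 and 15.8 in control pools, a fall of 2.81 (edgeR adjusted p = 0.0051). Neither peak showed overlap between the genotypes. Input reads at peak 2 numbered 25, 28 and 29 in knockout pools, against 6, 7 and 6 in control pools, a rise of 2.02 (edgeR adjusted p = 0.0246). Input at peak 1 was 32.2, 24.2 and 20.0 RPM in knockout pools, against 28.2, 26.2 and 27.3 in control pools (log2 change −0.10). IP fell by 1.05 at peak 1 (edgeR adjusted p = 0.00091), also with each pool left out, and changed by −0.79 at peak 2 (edgeR adjusted p = 0.12). The peaks differed by −2.11 in input change (edgeR adjusted p = 0.015) and by 1.86 in enrichment change (edgeR adjusted p = 0.20). The input difference lost its call without control pool 3 (edgeR adjusted p = 0.0622), knockout pool 2 (0.0533) or knockout pool 3 (0.0517). The fall at peak 1 was lost without control pool 2, control pool 3, knockout pool 2 or knockout pool 3 (edgeR adjusted p up to 0.17), that at peak 2 without control pool 2 (edgeR adjusted p = 0.0591), and the input rise was kept only without control pool 1 (edgeR adjusted p up to 0.0914).

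**Figure D3:**
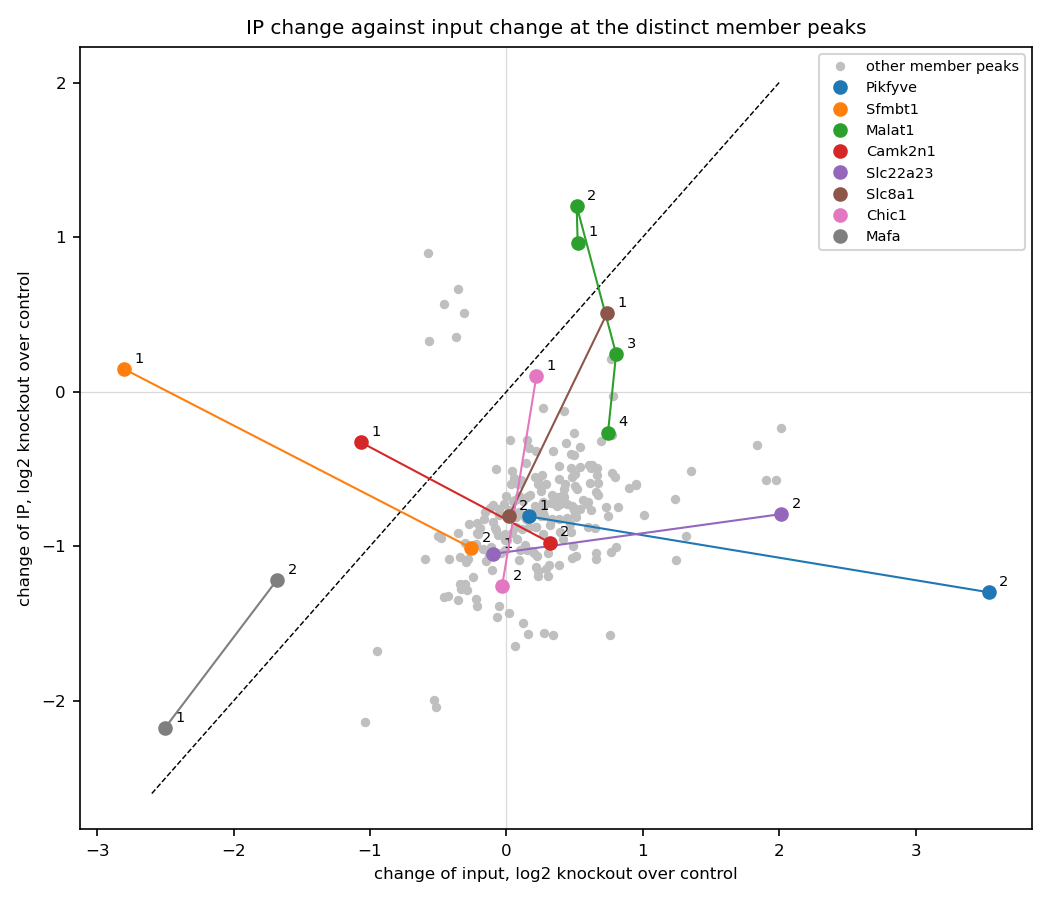
Log2 change of IP (y axis) against log2 change of input (x axis), knockout minus control, for the 230 distinct peaks; peaks of 8 genes are joined by lines and numbered, and the dashed line marks equal change of both, where enrichment does not change. Pikfyve peak 2 lies at an input change of 3.54 and an IP change of −1.30, and both Mafa peaks lie at the lower left near the dashed line.

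Genes with 3 or more distinct peaks mostly lost enrichment along their length. Prlr encodes the prolactin receptor, which supports β-cell growth in pregnancy. Its peak 1 (chr15:10177298-10177717, + strand, placed on a transcript without coding sequence) had enrichment of 1.92, 1.36 and 1.32 in knockout pools, against 2.92, 4.06 and 4.60 in control pools. Peak 2 (chr15:10326498-10329911, coding sequence) had 6.90, 4.93 and 4.64 in knockout pools, against 6.68, 11.4 and 12.6 in control pools. Control pool 1 lay among the knockout pools at peak 2. Peak 3 (chr15:10330869-10331618, 3′ UTR) had 3.49, 2.62 and 1.93 in knockout pools, against 3.80, 8.49 and 5.62 in control pools. Peak 4 (chr15:10332487-10333565, 3′ UTR) had 2.50, 1.67 and 1.84 in knockout pools, against 2.15, 7.06 and 5.23 in control pools. The groups stood apart at peaks 1 and 3 and overlapped at peaks 2 and 4. Enrichment fell at all of them, by 1.38 (edgeR adjusted p = 0.0123), 0.95 (0.0238), 1.13 (0.013) and 1.21 (0.00969) on the log2 scale, and IP fell at all of them by 0.88 to 1.03, with the call at peak 4 kept with each pool left out and those at peaks 1 to 3 lost without knockout pool 3, at peaks 1 and 2 also without control pool 2 or control pool 3, and at peak 1 without knockout pool 2 (edgeR adjusted p up to 0.11). At peak 2 the enrichment change had the opposite sign under TMM (0.056) and DESeq2 (0.078). Each of the 4 enrichment falls lost its call without control pool 2, control pool 3, knockout pool 2 or knockout pool 3 (edgeR adjusted p up to 0.13).

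Arhgap5, a GTPase-activating protein that acts on the cytoskeleton, carried 5 coding peaks on chromosome 12 from 52504355 to 52567477 (+ strand). Enrichment at peak 2 (chr12:52517723-52518383) was 4.32, 2.93 and 1.93 in knockout pools, against 5.62, 12.5 and 10.8 in control pools, without overlap. It fell at peaks 1 to 5 by 1.21, 1.74, 1.10, 1.19 and 1.39 in log2 units (edgeR adjusted p = 0.00741, 0.000411, 0.0222, 0.0106 and 0.0044). Peak 3 was the least enriched, with 2.41, 1.52 and 1.27 in knockout pools, against 2.15, 4.49 and 3.88 in control pools. At peaks 1, 3, 4 and 5 control pool 1 lay within the range of the knockout pools. Without control pool 2 or knockout pool 2 these 4 falls lost their calls, as did peaks 1, 3 and 4 without knockout pool 3 and peaks 3 and 4 without control pool 3 (edgeR adjusted p up to 0.126).

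Zfp292, a very large zinc finger protein, carried 4 peaks in its coding sequence (− strand). At peak 4 (chr4:34804642-34805782) enrichment was 14, 4.9 and 3.80 in knockout pools, against 7.70, 37.3 and 33.6 in control pools. Knockout pool 1 lay above control pool 1 there. Input reads at peak 4 numbered 104, 277 and 251 in knockout pools, against 118, 74 and 62 in control pools, and input rose by 1.24 (edgeR adjusted p = 0.00197), a call lost without knockout pool 2 or knockout pool 3 (edgeR adjusted p up to 0.0759). Enrichment fell by 1.93 at peak 4 (edgeR adjusted p = 0.000265), by 1.17 at peak 1 (0.012) and by 0.89 at peak 2 (0.0345), and changed by −0.90 at peak 3 (0.052). The fall at peak 4 held with each pool left out, and those at peaks 1 and 2 were lost without control pool 2, control pool 3, knockout pool 2 or knockout pool 3 (edgeR adjusted p up to 0.162). At peak 2 the change was 0.0998 under TMM and 0.12 under DESeq2.

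**Figure D4:**
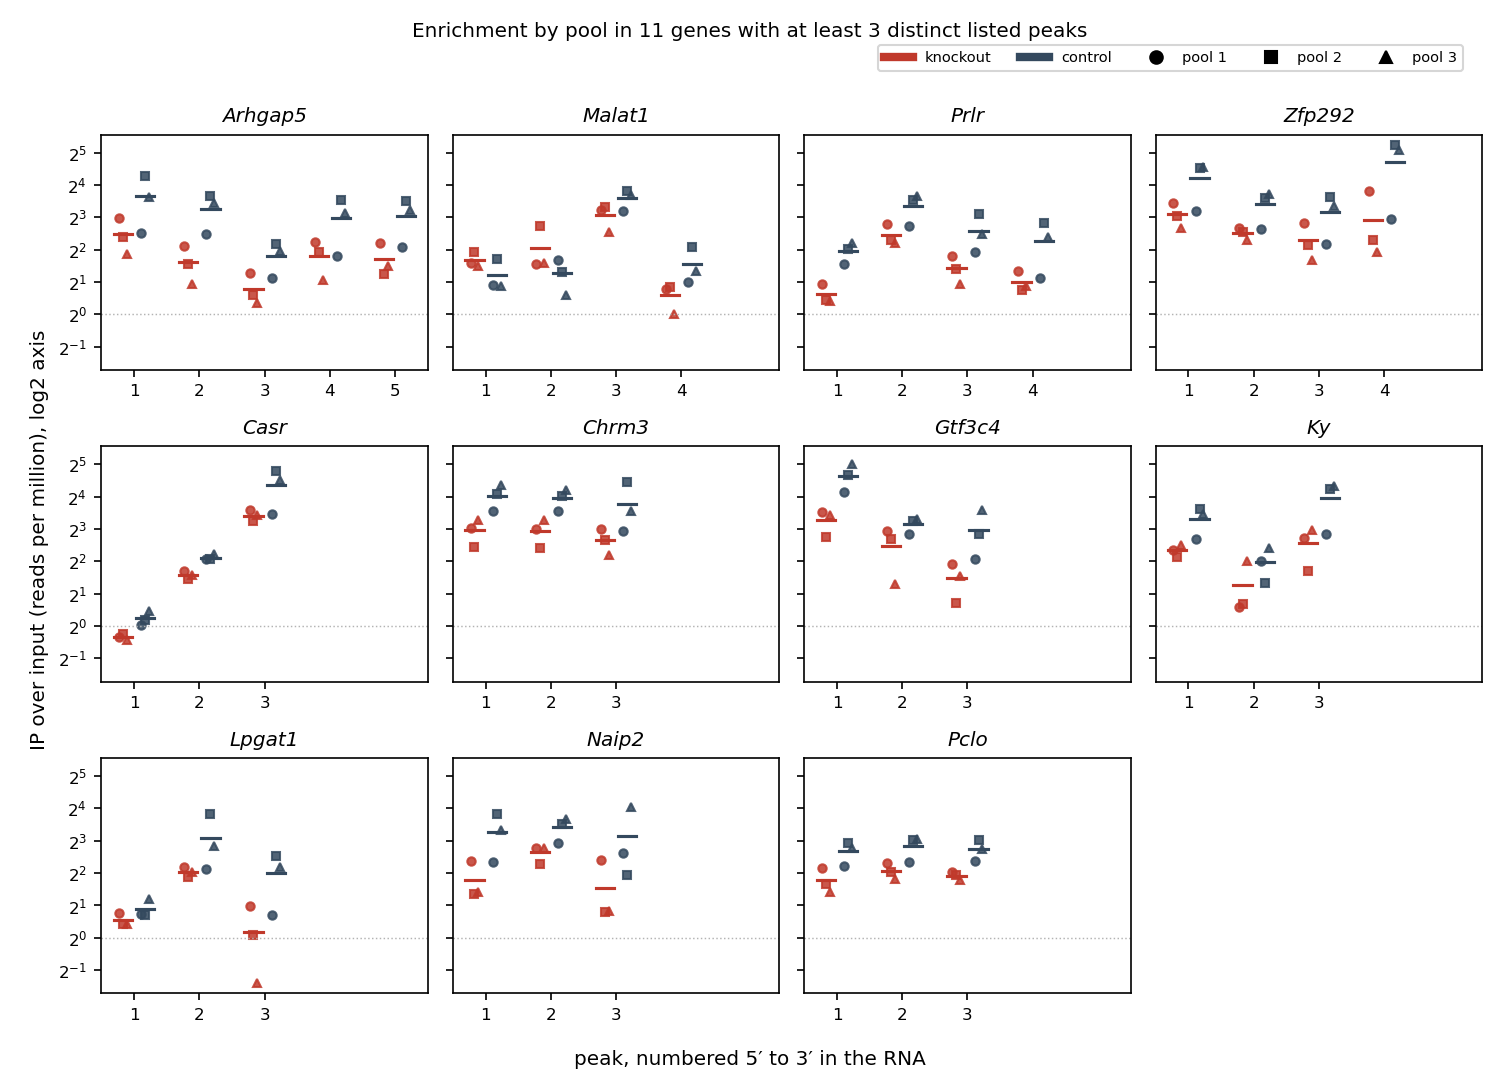
Enrichment (IP over input RPM, log2 axis) of each distinct peak in 11 genes with 3 or more distinct peaks, knockout pools in red left of control pools in blue, with each pool as a point, its number shown by the marker shape, and bars at the mean; the dotted line marks equal RPM in IP and input. Knockout means lie below control means at every peak but Malat1 peaks 1 and 2, and the lowest control point is often control pool 1.

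Chrm3, the muscarinic acetylcholine receptor M3 through which parasympathetic input raises insulin secretion, lost enrichment at 3 peaks by 1.17 (edgeR adjusted p = 0.0156), 1.12 (0.0195) and 1.05 (0.027). Its peaks 1 and 2 are nearly the same interval, with 8.25, 5.38 and 9.64 in knockout pools, against 11.8, 16.8 and 20.5 in control pools at peak 1. IP fell at all 3, also with each pool left out, whereas the enrichment falls were lost without control pool 2, control pool 3, knockout pool 2 or knockout pool 3 (edgeR adjusted p up to 0.211). Casr, the calcium-sensing receptor, lost enrichment at its 3′ UTR peak 3 by 0.88 (edgeR adjusted p = 0.0349; 0.099 under TMM and 0.12 under DESeq2) and had changes of −0.55 and −0.53 at peaks 1 and 2. At peak 3 it had 11.9, 9.44 and 10.7 in knockout pools, against 11, 27.8 and 22.6 in control pools, and the call was lost without control pool 2, control pool 3, knockout pool 2 or knockout pool 3 (edgeR adjusted p up to 0.193). Its peak 1 spans 44425 bases and had 0.793, 0.852 and 0.736 in knockout pools, against 1.02, 1.13 and 1.38 in control pools.

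Pclo, a scaffold of presynaptic active zones that also takes part in insulin granule exocytosis, had enrichment changes of −0.95 (edgeR adjusted p = 0.0263), −0.80 (0.0478) and −0.81 (0.0506). Peak 1 (chr5:14676642-14678141) had 4.50, 3.14 and 2.66 in knockout pools, against 4.63, 7.66 and 6.86 in control pools. IP fell at its 3 peaks, also with each pool left out, by 1.20, 1.08 and 1.10. The enrichment calls at peaks 1 and 2 were lost without control pool 2, control pool 3, knockout pool 2 or knockout pool 3, and at peak 2 also without knockout pool 1 (edgeR adjusted p up to 0.166), and the changes were 0.011 and 0.17 under TMM and 0.034 and 0.19 under DESeq2. Ky, a cytoskeletal protein of muscle, had changes of −0.94 (edgeR adjusted p = 0.0334), −0.89 (0.107) and −1.45 (0.00665), with 6.53, 3.27 and 7.90 in knockout pools, against 7.21, 18.9 and 20.0 in control pools, at peak 3. Its calls were lost without control pool 2, control pool 3 or knockout pool 2, and that at peak 1 also without knockout pool 1 or knockout pool 3 (edgeR adjusted p up to 0.145). Under DESeq2 the change at Ky peak 1 was 0.023. Gtf3c4, a subunit of the RNA polymerase III factor TFIIIC, lost enrichment by 1.44 (edgeR adjusted p = 0.00813), 0.95 (0.0448; 0.026 under TMM and 0.049 under DESeq2) and 1.49 (0.0156). Peak 1 had 11.6, 6.69 and 10.9 in knockout pools, against 17.5, 25.2 and 32.1 in control pools, without overlap. Its calls were lost without control pool 3 or knockout pool 2, and at peaks 2 and 3 also without control pool 2 or knockout pool 3 (edgeR adjusted p up to 0.496).

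In Lpgat1, a lysophosphatidylglycerol acyltransferase, the changes grew along the transcript, from −0.34 in the coding sequence (edgeR adjusted p = 0.517) to −0.95 (0.0394) and −1.92 (0.00733) in the 3′ UTR. Peak 3 (chr1:191781379-191781709) had 2.00, 1.05 and 0.382 in knockout pools, against 1.64, 5.79 and 4.56 in control pools. Peak 1 had 1.69, 1.36 and 1.36 in knockout pools, against 1.66, 1.64 and 2.31 in control pools, and the difference among its peaks was not called. The fall at peak 3 was lost without control pool 2, control pool 3 or knockout pool 3 (edgeR adjusted p up to 0.102) and that at peak 2 was kept only without control pool 1 (edgeR adjusted p up to 0.329), with changes of 0.028 under TMM and 0.050 under DESeq2. Naip2, a bacterial sensor of the NAIP family, had changes of −1.52 (edgeR adjusted p = 0.00799), −0.83 (0.0584) and −1.39 (0.0598). Reads of near-identical Naip copies may be split between them, and the call at peak 1 was lost without control pool 2, knockout pool 2 or knockout pool 3 (edgeR adjusted p up to 0.0777).

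Mafa, which activates the insulin gene in mature β-cells, lost input RNA at both peaks while its enrichment was not called. Input at peak 1 (chr15:75746532-75747246, − strand, coding sequence) was 49.0, 25.8 and 15.6 RPM in knockout pools, against 193, 160 and 161 in control pools. At peak 2 (chr15:75745907-75746085, 3′ UTR) it was 4.15, 4.82 and 4.48 in knockout pools, against 13.9, 18.1 and 11.2 in control pools. The groups stood far apart at both. Input fell by 2.51 (edgeR adjusted p = 1.97e-18) and 1.68 (edgeR adjusted p = 3.9e-05), and IP by 2.18 (edgeR adjusted p = 3.68e-14) and 1.22 (edgeR adjusted p = 0.0010), calls that held with each pool left out. Enrichment at peak 1 was 7.82, 10.6 and 29.0 in knockout pools, against 9.68, 5.30 and 14.4 in control pools (log2 change 0.33, edgeR adjusted p = 0.36). Peak 2 had 2.84, 2.45 and 2.46 in knockout pools, against 2.36, 1.25 and 2.26 in control pools (log2 change 0.46, edgeR adjusted p = 0.31). Both peaks are listed higher in knockout islets in the authors' deposited table.

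Rfx6, a transcription factor needed for endocrine differentiation, and Tox3, an HMG-box factor, are the other members among 40 β-cell transcription factors. Rfx6 peak 1 (chr10:51725398-51725847) had enrichment of 3.15, 3.62 and 3.5 in knockout pools, against 8.17, 6.60 and 10.1 in control pools. Its peak 2 (chr10:51729654-51730043) had 2.57, 1.94 and 1.64 in knockout pools, against 2.81, 6.08 and 4.56 in control pools. Without overlap at either peak, enrichment fell by 1.26 (edgeR adjusted p = 0.00844) and 1.15 (0.0204), calls lost without control pool 3, knockout pool 2 or knockout pool 3 and, at peak 2, without control pool 2 (edgeR adjusted p up to 0.114). Tox3 fell by 1.32 at peak 2 (edgeR adjusted p = 0.0051) and changed by −0.86 at peak 1 (0.0547), and the call was lost without control pool 3 or knockout pool 2 (edgeR adjusted p up to 0.0738). Over the 3 genes, 3 of 6 peaks fell in enrichment, 6 in IP and 2 in input, and over the 17 listed peaks of that group 12 fell in enrichment and 13 in IP. Among channels and transporters, Atp2b1, the plasma membrane calcium pump, had 15.3, 13.7 and 8.50 in knockout pools, against 15.4, 46.5 and 28.5 in control pools, at its 3′ UTR peak 2, a fall of 1.30 (edgeR adjusted p = 0.00669) lost without control pool 2 or knockout pool 3 (edgeR adjusted p up to 0.0925). Its wide peak 1 fell by 0.98 (edgeR adjusted p = 0.034; 0.0045 under DESeq2) and kept the call only without control pool 1 (edgeR adjusted p up to 0.147). For receptors, all 7 peaks of Chrm3 and Prlr fell in enrichment and in IP, and over the 17 listed peaks of the list 14 and 12.

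The remaining lists had few members. Of chromatin regulators, Baz2b, a bromodomain protein, lost enrichment at peak 2 by 1.80 (edgeR adjusted p = 0.00278; 0.0556 at most with a pool left out, lost without control pool 2 or knockout pool 3) and changed by −0.80 at peak 1 (0.0584). With Sfmbt1, 1 of 4 peaks of that list fell in enrichment and 1 rose. Over the 22 listed peaks of the list 7 fell and 1 rose, where 55.6% of all listed peaks fell and 2.27% rose. Birc6, a giant ubiquitin ligase that inhibits apoptosis, had changes of −0.86 (edgeR adjusted p = 0.0395; 0.12 under TMM and 0.15 under DESeq2) and −0.76 (0.0931), the call being lost without control pool 2, control pool 3, knockout pool 2 or knockout pool 3 (edgeR adjusted p up to 0.246). No member was in the lists for secretory granules, the unfolded protein response, m6A machinery, RNA processing, mitochondrially encoded genes, or α-, PP-, acinar, ductal, stromal or immune cells. These lists are incomplete, as Pclo and the RNA-binding protein Rbm4b are members outside them. Absence from a list is not absence of the function.

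Markers of other islet and vessel cells were present. Frzb, a secreted Wnt antagonist and δ-cell marker, had enrichment of 2.87, 1.54 and 1.95 in knockout pools, against 4.23, 6.82 and 9.997 in control pools, at peak 2 (chr2:80413109-80418333, − strand, 3′ UTR). Enrichment there fell by 1.72 (edgeR adjusted p = 0.000526) and IP by 1.57 (edgeR adjusted p = 2.44e-06), both also with each pool left out. At its 5′ UTR peak 1 IP fell by 1.08 (edgeR adjusted p = 0.00176) and enrichment changed by −0.66 (edgeR adjusted p = 0.129). Frzb is the only one of 5 δ-cell markers in the list, and its summed input was 31.2 to 43.3 RPM in knockout pools, against 35.2 to 42.9 in control pools. Podxl, a sialomucin of endothelial and epithelial surfaces, gained enrichment at peak 2 (chr6:31522696-31523504), with 12.9, 8.88 and 8.69 in knockout pools, against 4.73, 4.19 and 6.72 in control pools. The rise was 1.03 (edgeR adjusted p = 0.0422), kept only without control pool 1 (edgeR adjusted p up to 0.152), and peak 1 changed by 0.82 (edgeR adjusted p = 0.0683). Of 9 endothelial markers 4 are in the list, with a summed input of 42.4 to 84.2 RPM in knockout pools, against 77.8 to 84.6 in control pools, and the part of cell number in the Podxl rise was not tested.

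By function, the members spread over many processes. These groups were drawn up after the data had been seen and are given as counts of distinct peaks, without a test, to be read against the 55.6% of all listed peaks that fell in enrichment and the 64.8% that fell in IP. Of 31 peaks in 13 genes of ion transport, receptors and excitability, 21 fell in enrichment and 25 in IP, with a median log2 enrichment change of −1.09. Of 27 peaks in 12 transcription factors and zinc finger proteins, 18 fell and the median was −1.11. Among 28 peaks in 12 genes of the cytoskeleton, its regulators and scaffolds, 16 fell with a median of −0.94, and among 21 peaks in 10 genes of active zones and vesicle traffic 12 fell with a median of −0.97. The 24 peaks in 12 coactivator, chromatin and RNA genes had 14 falls and 1 rise, and the 31 peaks in 15 genes of signalling enzymes and nutrient sensing had 21 falls and 1 rise, the rise being that of Castor2, of the mTORC1 pathway. The 22 peaks in 11 adhesion, matrix and secreted genes had 11 falls and 1 rise, the 8 in 4 ubiquitin genes 3 falls and the 8 in 4 genes of the ER and nuclear envelope 5. The 7 peaks of noncoding nuclear RNAs, 4 of them in Malat1, had 1 fall, 1 rise and changes of both signs, with a median of 0.44.

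Beside Malat1, the noncoding members were Gm26917 and Neat1. Gm26917 peak 2 (chr17:39845074-39845497) had enrichment of 2.97, 3.69 and 4.07 in knockout pools, against 3.04, 1.07 and 1.73 in control pools, a rise of 0.89 (edgeR adjusted p = 0.0249) lost without control pool 2, control pool 3, knockout pool 2 or knockout pool 3 (edgeR adjusted p up to 0.188). Its overlapping peak 1 changed by 0.73 (edgeR adjusted p = 0.0564). Neat1, the scaffold RNA of paraspeckles, had 5.71, 4.76 and 4.87 in knockout pools, against 5.53, 6.68 and 9.49 in control pools (log2 change −0.47, edgeR adjusted p = 0.207), and IP changed by −0.31 (edgeR adjusted p = 0.231).

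At some peaks of Mettl9, 3222401L13Rik and Pcdhgb1 enrichment fell and input rose while no change of IP was called. Mettl9, a histidine methyltransferase, had 1.74, 1.83 and 0.881 in knockout pools, against 3.37, 7.38 and 3.18 in control pools, at its peak 1, a fall of 1.55 (edgeR adjusted p = 0.00512) lost without control pool 2 or knockout pool 3 (edgeR adjusted p up to 0.0745). Its input rose by 0.95 (edgeR adjusted p = 0.0426), a call lost without control pool 2 or any knockout pool (edgeR adjusted p up to 0.326), and its peak 2 is nearly the same interval. The peaks of 3222401L13Rik, which are nearly the same interval too, lost enrichment by 2.47 and 2.55 (edgeR adjusted p = 0.000726 and 0.000411), and input at peak 1 held 47, 34 and 71 reads in knockout pools, against 23, 7 and 9 in control pools. The neighbouring protocadherin gene Pcdhgb1, whose cluster shares exons among its genes, fell in enrichment by 1.81 at peak 1 (edgeR adjusted p = 0.0088) and 2.24 at peak 2 (0.0135). At peak 1 IP fell by 1.01 (edgeR adjusted p = 0.0158; 0.108 at most with a pool left out, lost without control pool 3, knockout pool 2 or knockout pool 3) and input changed by 0.80, which was not called. Its calls were lost at peak 1 without knockout pool 2 and at peak 2 without control pool 3, knockout pool 2 or knockout pool 3 (edgeR adjusted p up to 0.143). Its peak 2 had 27, 9 and 35 input reads in knockout pools, against 7, 9 and 1 in control pools, a rise of 2.01 (edgeR adjusted p = 0.0204) lost without control pool 3, knockout pool 1 or knockout pool 3 (edgeR adjusted p up to 0.226).

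The smallest distances between peaks that do not overlap were those of Ptpn11, 2210016F16Rik, 1810013L24Rik and Smcr8. Ptpn11, the phosphatase SHP2, fell by 0.93 at each 3′ UTR peak (edgeR adjusted p = 0.0377 and 0.0419), with 4.12, 2.58 and 2.43 in knockout pools, against 3.62, 6.19 and 7.11 in control pools, at peak 1. Under TMM these changes were 0.042 and 0.048 and under DESeq2 0.065 and 0.070. IP fell by 1.05 and 1.06, also with each pool left out. 2210016F16Rik fell by 1.55 at both peaks (edgeR adjusted p = 0.00691 and 0.0181) and 1810013L24Rik by 1.09 and 1.08 (edgeR adjusted p = 0.0165 and 0.0153). The enrichment falls of these 3 genes lost their calls without control pool 2 or knockout pool 3 (edgeR adjusted p up to 0.311), and all but 2210016F16Rik peak 1 also without control pool 3 or knockout pool 2. Smcr8, a partner of C9orf72 in autophagy, had changes of −0.61 and −0.63 that were not called, and its IP fell at peak 2 only, by 0.85 (edgeR adjusted p = 0.00786), lost without control pool 3, knockout pool 2 or knockout pool 3 (edgeR adjusted p up to 0.0807). Among the remaining named genes, the overlapping peaks of Rbm4b, an RNA-binding protein, fell by 1.20 and 1.03 (edgeR adjusted p = 0.0123 and 0.0268), lost without control pool 2, control pool 3, knockout pool 2 or knockout pool 3 and, at peak 2, without knockout pool 1 (edgeR adjusted p up to 0.15). Lgals3bp, a secreted galectin-binding glycoprotein, changed by −0.76 (edgeR adjusted p = 0.0584) and fell by 1.02 (0.0156), the call being lost without control pool 3, knockout pool 1 or knockout pool 2 (edgeR adjusted p up to 0.127). Pstk, a kinase in selenocysteine synthesis, fell by 2.33 at peak 1 (edgeR adjusted p = 0.0115) and by 0.95 at peak 2 (0.0423; 0.011 under DESeq2), calls lost without control pool 2, knockout pool 2 or knockout pool 3 and, at peak 2, without control pool 3 or knockout pool 1 (edgeR adjusted p up to 0.347).

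**Figure D5:**
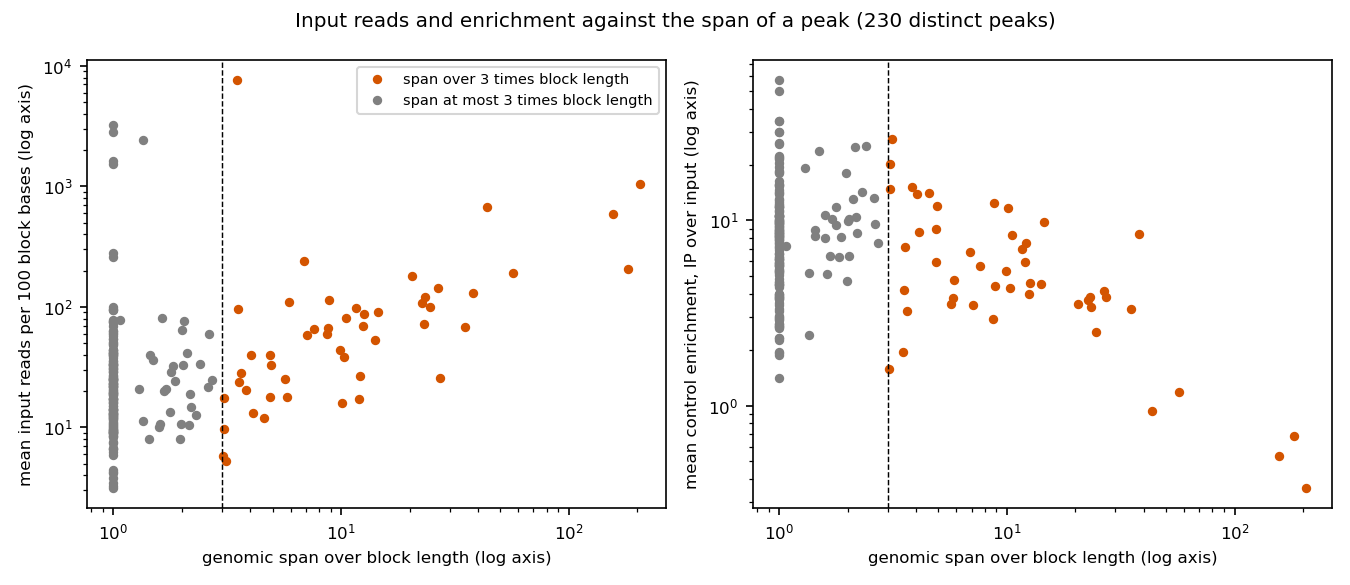
Input reads per 100 block bases (left) and mean enrichment in control pools (right) against the ratio of genomic span to block length, both axes logarithmic, for the 230 distinct peaks; the dashed line marks a ratio of 3. Peaks right of the line had a median of 66.0 input reads per 100 block bases, against 21.01 left of it.

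Peaks whose span far exceeded their aligned blocks differed from the rest in input. Of the 230 distinct peaks, 49 spanned over 3 times the length of their aligned blocks, with a median span of 5291 bases and a median block length of 600. The other 181 had medians of 779 and 690. Input was 66.0 reads per 100 block bases in the wide peaks and 21.01 in the others. In 37 genes with both kinds, the wide peak had the higher value in 30, with a median ratio of 2.06, and the lower control enrichment in 25. Median enrichment in wide peaks was 2.87 in knockout pools and 4.53 in control pools, and in the others 4.16 in knockout pools and 8.31 in control pools. Enrichment fell at 55.1% of wide peaks and at 60.8% of the others. At 4 peaks, in Arhgef12, Chic1, Plcxd3 and Slc8a1, mean enrichment was under 1 in both genotypes. Wide peaks made up 21.1% of the member peaks and 22.7% of the list. Whether intronic reads entered these counts was not tested.

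The members lay on long transcripts. Their median transcript length was 6039 nt, against 4182 nt over all listed peaks, and their median input was 9.12 RPM, against 6.24 in genes with 1 listed peak. By the middle of the spliced peak, 106 were coding, 92 in the 3′ UTR, 5 in the 5′ UTR and 22 on noncoding transcripts, and 7 were not placed. Of placed peaks, 40.9% were in the 3′ UTR and 47.1% coding, against 50.2% and 42.4% in genes with 1 listed peak. In 40 genes that had a coding and a 3′ UTR peak, the median log2 enrichment change was −0.95 in coding sequence and −1.19 in the 3′ UTR, and the 3′ UTR change was the more negative in 24. Median enrichment in knockout pools was 4.44 at the coding peaks and 2.64 at the 3′ UTR peaks, and in control pools 8.59 and 8.33. Compared within each of the 40 genes, enrichment was higher in the 3′ UTR in 15 genes in knockout pools and in 16 in control pools. The medians therefore do not show that the order of coding and 3′ UTR peaks within genes changed between the genotypes. These values describe the genes and carry no test. In 91 genes 2 or more distinct peaks were placed on 1 transcript, though not always all peaks of the gene. Leaving aside genes whose peaks overlapped there, the median smallest gap was 928 bases. Where the gap was at most 300 bases, in 22 genes, the median distance between changes was 0.34 for enrichment, 0.12 for IP and 0.24 for input. Where it was over 1000 bases, in 36 genes, it was 0.31, 0.22 and 0.37.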

How the data were processed

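MeRIP-seq IP and input libraries of 3 knockout and 3 control pools were used, from 1 table of differential peaks. Per the file headers, the deposited values are whole read counts per peak, library totals, and RPM computed from both. The authors also deposited a log2 fold change of knockout against control, a fold enrichment ratio of each peak and score columns holding log10 p-values and FDR values of the peak and of the differential test. The largest deposited differential FDR among the member peaks was 0.00324, so the peaks had been selected on these libraries. Tools named in the submitters' processing notes, with no role, are fastp 0.19.11, BWA 0.7.12 and HOMER 4.9.1, with build GRCm38.p6. No source used here gives the peak caller or the strand of counting.

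Members and gene lists were chosen with earlier results of these data known. Symbols were matched for 107 of 107 genes. Quasi-likelihood models of edgeR 4.0.16, run in R 4.3.3, took the counts with total reads as library sizes, over all 1233 peaks and 12 libraries (common dispersion 0.0643). Enrichment change is the interaction of library kind and genotype, IP and input changes are the genotype contrast within each kind, and p-values were adjusted by Benjamini-Hochberg with a threshold of 0.05. Differences between peaks of a gene were tested with diffSpliceDGE over 106 genes, with peaks of identical counts merged. p-values measure the spread between libraries of different pools and not between mice, whose division among the pools is not known. The main fit had no term for the pool, so IP and input of the same pool were treated as independent. Peaks were placed on GENCODE M21 transcripts where 90% of their bases fell in exons. Alternatives were TMM factors, DESeq2 1.42.0, limma 3.58.1 with a pseudocount of 0.5, low-count filters, halved counts, overlap and identical-count handling, blocks, and each pool left out. Genes were named by rank of the within-gene test, number of peaks, direction, lists, spread, overlap, input level and size of change. On simulated data the fit of 1233 peaks recovered 29% of peaks changed by a log2 of 1 and 98% of those changed by 2, with 3 false calls, and the within-gene test over 106 genes 16% and 88%, with 0 false calls. The simulated counts had the common dispersion at every peak, no deviating pool and changes in knockout IP only. These figures are therefore not error rates for the calls made here. Python 3.11.15, pandas 2.3.3, scipy 1.17.1 and matplotlib 3.10.9 were used.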

Additional observations from a re-analysis of the deposited data

How the results depend on the processing

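Calls depended on the pools and on the scaling. Both TMM and DESeq2 were scaled on the listed peaks, most of which are lower, so falls lost under them are not separate evidence. Falls of enrichment (137) became 1 under TMM and 4 under DESeq2, and 16 to 192 with 1 pool left out. Rises of enrichment (4) became 8 under DESeq2, 2 with a replicate block by pool, 2 with a replicate block by number, 2 over peaks spanning at most 3 times their block length, and 0 to 8 with 1 pool left out. Falls of IP (160) became 8 under TMM, 15 under DESeq2 and 58 to 198 with 1 pool left out, and rises of IP (3) 10, 12 and 3 to 11. Falls of input (5) became 8 under TMM, 15 under DESeq2, 3 over peaks spanning at most 3 times their block length and 2 to 7 with 1 pool left out. Rises of input (11) became 7 under TMM, 6 with counts halved, 7 with a replicate block by number and 5 to 23 with 1 pool left out. The median log2 enrichment change of the distinct peaks moved from −1.01 to −0.057 under TMM.

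Genes whose peaks differed in enrichment (4) became 1 under TMM, 0 under limma, 2 with a replicate block by number, 0 with wide peaks left out and 1 to 6 with 1 pool left out. For IP (3) they became 0 under TMM, 0 under limma, 1 with wide peaks left out and 0 to 4 with 1 pool left out, and for input (3) 1 with counts halved, 1 with wide peaks left out and 1 to 5 with 1 pool left out. Leaving out wide peaks leaves 65 genes with 2 or more, and drops all the called genes but Malat1 and Slc22a23, the enrichment call of Malat1 being lost there too (edgeR adjusted p = 0.051). The cause of the other changes was not tested. In the within-gene test Pikfyve kept its calls under TMM (edgeR adjusted p = 0.000145 for enrichment and 5.11e-05 for input) and, for input, under limma (adjusted p = 0.027), but not for enrichment under limma (adjusted p = 0.121). The others lost an enrichment or IP call under both TMM and limma. Sfmbt1 also lost its input call under TMM (edgeR adjusted p = 0.273), limma (adjusted p = 0.272), with counts halved (edgeR adjusted p = 0.0967) and with identical counts kept apart (edgeR adjusted p = 0.0532), while Slc22a23 kept its input call under TMM and limma and lost it with counts halved (edgeR adjusted p = 0.0566).

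Enrichment changes that turned positive under TMM were those of Birc6 peak 1 (0.12), Casr peak 3 (0.099), Gtf3c4 peak 2 (0.026), Lpgat1 peak 2 (0.028), Pclo peaks 1 (0.011) and 2 (0.17), Pikfyve peak 1 (0.0025), Prlr peak 2 (0.056), Ptpn11 peaks 1 (0.042) and 2 (0.048) and Zfp292 peak 2 (0.0998). Under DESeq2 they were those of Atp2b1 peak 1 (0.0045), Birc6 peak 1 (0.15), Casr peak 3 (0.12), Gtf3c4 peak 2 (0.049), Ky peak 1 (0.023), Lpgat1 peak 2 (0.050), Pclo peaks 1 (0.034) and 2 (0.19), Pikfyve peak 1 (0.024), Prlr peak 2 (0.078), Pstk peak 2 (0.011), Ptpn11 peaks 1 (0.065) and 2 (0.070), Slc22a23 peak 1 (0.022) and Zfp292 peak 2 (0.12).

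Pool numbers are shared between genotypes but did not pair them. Deviations of knockout and control IP libraries of the same number correlated at −0.33, 0.04 and 0.10, those of input libraries at −0.08 to −0.01, and IP and input of the same pool at −0.07 to 0.06. A replicate block by pool gave 111 falls of enrichment and a replicate block by number 100. IP or input alone has 1 library per pool, so no pool block could be fitted there. Leaving out wide peaks, counting compact peaks only and the block by number were chosen after seeing the data. Depth limits the low peaks, since 8 member peaks averaged under 30 input reads.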
